A study of Mus musculus with 18 samples.

Results

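The genes described here are the 38 proteasome subunit genes of the mouse whose nascent RNA was measured across red blood cell development in the fetal liver. They were picked by symbol: 14 constitutive subunits of the core particle (Psma1 to Psma7 and Psmb1 to Psmb7), 3 subunits of the immunoproteasome (Psmb8, Psmb9 and Psmb10), 17 subunits of the regulatory particle (Psmc1 to Psmc6 and 11 Psmd genes) and 4 genes of alternative activators (Psme1 to Psme4). Of these, 37 matched a row of the count table, which lists 54232 gene identifiers. The RNA of Psmb9 was not analysed here, and this gene enters only the counts of promoter windows. The assay was 4sU-seq, which sequences only RNA made during a short pulse of 4-thiouridine (4sU), a uridine analog that newly made RNA incorporates and by which it is purified. Fetal liver cells of C57BL/6 mice, from embryos of e12.5 to e13.5, were separated by flow cytometry, rested for 6 h and labeled with 500 µM 4sU for 45 min. The labels name no gene deletion or transgene, and all groups received the same labeling.

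The 5 erythroid populations were negative for markers of other blood lineages (Lin-) and were separated by CD71, the transferrin receptor, and Ter119, a surface marker of maturing erythroid cells. S0-Low cells were CD71-; Ter119- and hold stem and progenitor cells, including the earliest erythroid progenitors. S0-Medium cells had medium CD71 without Ter119, and S1 cells had high CD71 without Ter119. S2 cells had high CD71 with medium Ter119, and S3 cells, the most mature, had high CD71 with high Ter119. The sixth group, Lin+ cells, carried markers of other lineages. Each group had 3 replicates, so there were 18 libraries, 15 of them erythroid. The study describes its replicates as biological, but whether they came from separate litters is not stated, and p-values measure the spread between these samples.

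The proteasome breaks down proteins that carry ubiquitin. Its core particle is a barrel of alpha rings (Psma) and beta rings (Psmb) with the protein-cutting sites inside, and the regulatory particle (Psmc and Psmd) caps the barrel, recognizes ubiquitin, unfolds the substrate with its ring of ATPases and feeds it in. In leukocytes, and after interferon signals, the immunoproteasome subunits take the places of the constitutive catalytic subunits, and other caps (Psme) can replace the regulatory particle. Maturing erythroid cells are known for clearing most of their proteins while hemoglobin is kept.

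Between S0-Low and S3 the proteasome genes did not move as 1 block. The activator genes Psme3 and Psme4 rose about 3.90-fold and 3.77-fold, and 4 of 17 regulatory particle genes rose 2.11-fold to 2.54-fold. None of the 14 constitutive core genes passed the test. The immunoproteasome gene Psmb8 fell at least 130-fold. Psmb10, of the same group, and the activator gene Psme1 fell by folds that hang on S3 replicate 2: 75.2-fold and 12.46-fold with it, and at least 124-fold and 32.3-fold without it. In all, 6 of 37 members rose against 13.4% of all 16555 genes tested, and 3 of 37 fell against 22.4% of all genes (edgeR's quasi-likelihood test, adjusted p under 0.05). At an unadjusted p under 0.05 the counts were 11 higher against 17% of all genes and 3 lower against 30.5%. The median gene had a log2 fold change of −0.54, and this depends on which genes are tested: it was −0.08 without a filter and −0.05 over genes reaching 10 counts in each library compared. A member with no fold change thus stood above the median gene of the main set and about at that of the other sets.

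Library totals lay between 9452476 and 40567976 counts. The lowest was that of S0-Low replicate 3, where S0-Low replicates 1 and 2 had 35264717 and 33587555 counts. Values below are CPM, counts scaled to a common library size, here normalized by TMM over the 18 libraries, whose factors in the erythroid fit were 1.13 to 1.31 in S0-Low and 0.594 to 0.755 in S3. With library totals in place of TMM, the median gene fell by 1.36 on the log2 scale from S0-Low to S3. Summed CPM of 8 erythroid markers ran from 500 to 1067 in S0-Low and from 24317 to 41710 in S3. Lin+ libraries are labeled as erythroblasts, yet those markers summed to 274 to 351 CPM and 7 myeloid markers to 3324 to 5721 CPM. In these bulk samples, fewer cells of a type and less RNA per cell cannot be told apart.

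Replicate 3 was low for most members in every group except for the core genes of S0-Medium. It was below both other replicates for 11 of 14 core and 16 of 17 regulatory genes in S0-Low, and for 11 and 13 in S3. In S0-Medium it was below both others for 6 core and 14 regulatory genes. In S3, replicate 2 was the highest for 13 of 14 core and 15 of 17 regulatory genes. Without replicate 3 of every population, 4 of 17 regulatory genes and 2 of 14 core genes rose, Psma2 and Psmb7, where 13.7% of all genes rose.

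The constitutive catalytic subunits stayed measurable in every library and none changed past the test. Psmb5, the subunit with chymotrypsin-like activity, was the lowest of the core genes, with 22.7, 17.5 and 12.1 CPM in S0-Low and 6.51, 22.5 and 5.86 CPM in S3. In S3, replicate 2 lay just below the highest S0-Low library and the other replicates lay below all of them. The log2 fold change was −0.58 (edgeR, adjusted p = 0.460). Psmb6, the caspase-like subunit, had 66.5, 53.9 and 9.96 CPM in S0-Low and 26.0, 80.8 and 58.7 CPM in S3, so the groups overlapped and the lowest value was S0-Low replicate 3 (log2 fold change 0.34, edgeR adjusted p = 0.678). Psmb7, the trypsin-like subunit, had 87.3, 78.2 and 16.2 CPM in S0-Low and 214, 139 and 75.3 CPM in S3. It was higher in S3 in all 3 same-numbered pairs, yet the groups overlapped and the change of 1.23 did not pass (edgeR, adjusted p = 0.0820). It passed without replicate 3 of every population (adjusted p = 0.0139).

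Among the other core genes the highest changes were those of alpha-ring genes. Psma2 had 67.4, 83.0 and 77 CPM in S0-Low and 110, 171 and 103 CPM in S3, with every S3 library above every S0-Low library. Its log2 fold change of 0.75 did not pass (edgeR, adjusted p = 0.0712). Psma6 had 80.9, 78.4 and 30.7 CPM in S0-Low against 93.6, 113 and 47.0 CPM in S3, and Psma1 had 70.4, 78.5 and 56.5 CPM against 69.9, 145 and 52.8 CPM. For both genes the groups overlapped, and the high value was S3 replicate 2. The log2 fold changes were 0.41 for Psma6 and 0.38 for Psma1.

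The lowest changes of the other core genes belonged to Psmb3, Psma4 and Psma5. Psmb3 had 48.6, 46.1 and 22.1 CPM in S0-Low and 14.1, 41.3 and 12.52 CPM in S3 (log2 fold change −0.78). Psma4 had 130, 110 and 28.3 CPM against 36.3, 123 and 39.7 CPM (−0.43). Psma5 had 73.9, 72.5 and 78.1 CPM against 74.5, 84.8 and 26.5 CPM (−0.27). In each, 1 or more S3 libraries lay within the S0-Low range. For these genes the read assignment is uncertain, since Psmb3, Psma5 and Psma4 share 67.3%, 64.4% and 34.6% of their 31-base stretches with other genes or pseudogenes of the annotation.

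Over the 14 core genes, edgeR called 0 higher and 0 lower, against 13.4% and 22.4% of all genes. At an unadjusted p under 0.05, 2 were higher (Psma2 and Psmb7), against 17% of all genes. DESeq2 called 0, against 15% of all genes higher and 29.3% lower. The median log2 fold change was 0.07, with a range from −0.78 to 1.23, and 7 of 14 genes lay above 0. Of the 14 genes, 12 lay above the −0.54 of all genes tested, but with a minimum of 10 counts in each library compared the core median was −0.15, below the −0.05 of all genes. Alpha-ring genes had a median of 0.00 and beta-ring genes of 0.14. The sign of the core median was not stable. It was −0.72 with library totals, where Psmb2 and Psmb3 fell past the test against 37.6% of all genes, and −0.06 with RLE size factors. It was also −0.44 without S3 replicate 2, −0.25 without S0-Low replicate 3 and −0.12 with only the 6 libraries compared. The alpha-ring genes Psma3 and Psma7 had log2 fold changes of −0.04 and −0.00. The beta-ring genes Psmb1, Psmb2 and Psmb4 had 0.27, −0.18 and 0.14. All 5 had overlapping groups and none passed by TMM.

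**Figure D1:**
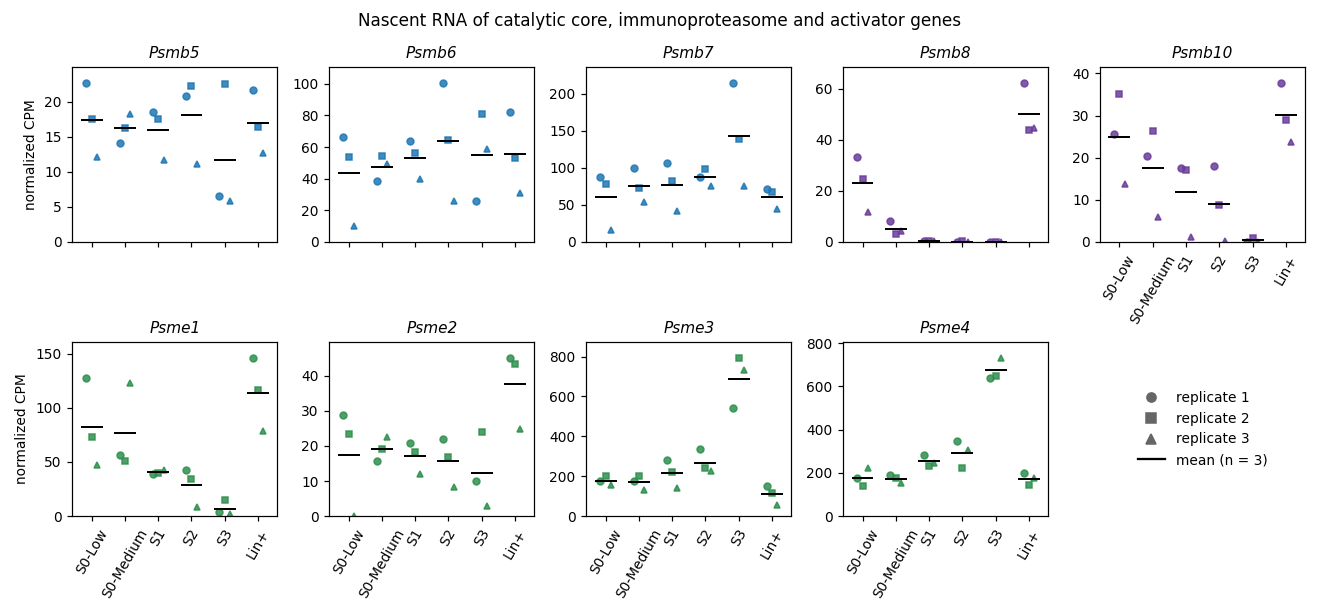
Normalized CPM (y axis, linear from 0) of the 5 catalytic beta subunits and the 4 activator genes in the 6 groups. Circles, squares and triangles are replicates 1, 2 and 3, and the bar is the mean. Psmb8 ran from 11.7 to 33.1 CPM in S0-Low and was at 0 counts in every S3 library, while Psme3 and Psme4 lay above 540 CPM in all S3 libraries and at or below 222 CPM in S0-Low.

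The immunoproteasome genes fell with maturation. The S0-Low libraries had 33.1, 24.6 and 11.7 CPM (23.1 ± 10.8, mean and SD, n = 3) of Psmb8, which takes the place of Psmb5, and the S0-Medium libraries 7.99, 3.24 and 4.40 CPM. In S1 it had 0.229, 0.235 and 0.234 CPM, which were 9, 9 and 7 counts. In S2 it was at 0, 0.240 and 0 CPM, and in S3 all libraries had 0 counts. The 3 groups S0-Low, S0-Medium and S1 did not overlap for this gene and followed each other downward. A floor of 3 counts, which is 0.0622 to 0.249 normalized CPM over the libraries, makes the fall from S0-Low to S3 at least 130-fold (edgeR, adjusted p = 0.000345). Psmb8 shares 7.98% of its 31-base stretches with a neighboring gene model, Gm20496, which had 86 counts in all libraries together.

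Psmb10, which takes the place of Psmb7, fell later. S0-Low replicates had 25.5, 35.1 and 13.9 CPM and S0-Medium replicates 20.3, 26.3 and 5.87 CPM. Values of 17.6, 17.0 and 1.07 CPM followed in S1, and of 18.1, 8.76 and 0.183 CPM in S2. S3 had 0, 0.991 and 0 CPM, with all of its 22 counts in replicate 2. Replicates 1 and 2 therefore still had 8.76 CPM or more in S2, while replicate 3 was at 1.07 CPM or less from S1 on. The group means differed 75.2-fold between S0-Low and S3, and 50.1-fold without S3 replicate 1 or 3 (log2 fold change −6.14 ± 1.71 SE, edgeR adjusted p = 0.0122). Psmb8 and Psmb10 passed in all 15 alternatives in which they could be tested.

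Summed CPM of 5 leukocyte markers moved with these genes. S0-Low libraries had 453 to 656 and S0-Medium libraries 92.8 to 249. The sum was 16 to 23.0 in S1, 1.05 to 18.1 in S2 and 1.53 to 13.55 in S3, where 4 of the 5 markers were at or under 3 counts in every library. The sum of 7 myeloid markers ran from 469 to 820 CPM in S0-Low and was 0.534 to 2.39 for S1 and 0 to 1.44 for S3. The sum of 7 progenitor markers moved with these genes too, from 1018 to 1509 CPM in S0-Low over 511 to 890 in S0-Medium, 174 to 278 in S1 and 18.5 to 129 in S2 down to 1.61 to 10.8 in S3. In Lin+ libraries the leukocyte markers summed to 1355 to 1435 CPM and the progenitor markers to 1030 to 1525 CPM. Psmb10 in S1 replicates 1 and 2 was at 17.6 and 17.0 CPM, with leukocyte markers at 23.0 and 21.3 CPM. The part of these cells in the result was not tested.

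The ratio of an immunoproteasome gene to the constitutive gene it replaces was taken within each library, where the scaling moves it little as long as both genes lie well above the pseudocount. The log2 ratio of Psmb8 to Psmb5, taken at CPM plus 0.5, was 0.54, 0.48 and −0.05 in S0-Low and −3.81, −5.53 and −3.67 in S3. That of Psmb10 to Psmb7 was −1.75, −1.14 and −0.22 in S0-Low and −8.75, −6.55 and −7.24 in S3. Neither ratio overlapped between the populations, and the differences of means were −4.66 and −6.47. Both had a two-sided exact permutation p of 0.1, the smallest that 3 against 3 libraries allow, and 0.133 after Benjamini-Hochberg adjustment over 4 ratio tests. With Psmb8 at 0 counts in all S3 libraries and Psmb10 at 0 in 2 of them, these values depend on the pseudocount and, through it, on the scaling.

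The sequences upstream of Psmb5, Psmb8 and Psmb10 are shown because the first is the constitutive gene and the others are the members that fell furthest. Each is the 250 bases before the RefSeq start on GRCm38.p6, 5′ to 3′ on the gene's strand, and capitals mark the antioxidant response element core TGACNNNGC or a CCAAT box on either strand. Psmb5 is on the minus strand (window chr14:54617996-54618245), Psmb8 on the plus strand (chr17:34197945-34198194) and Psmb10 on the minus strand (chr8:105938393-105938642).
Psmb5: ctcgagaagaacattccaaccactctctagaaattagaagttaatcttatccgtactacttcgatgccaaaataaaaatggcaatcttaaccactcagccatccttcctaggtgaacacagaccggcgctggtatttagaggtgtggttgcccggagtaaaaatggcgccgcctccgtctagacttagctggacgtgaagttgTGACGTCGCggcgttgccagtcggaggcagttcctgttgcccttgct
Psmb8: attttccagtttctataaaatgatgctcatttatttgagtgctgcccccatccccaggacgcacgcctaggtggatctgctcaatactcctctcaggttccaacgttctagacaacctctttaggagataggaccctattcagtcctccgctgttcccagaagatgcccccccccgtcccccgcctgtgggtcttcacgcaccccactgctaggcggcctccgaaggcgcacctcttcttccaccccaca
Psmb10: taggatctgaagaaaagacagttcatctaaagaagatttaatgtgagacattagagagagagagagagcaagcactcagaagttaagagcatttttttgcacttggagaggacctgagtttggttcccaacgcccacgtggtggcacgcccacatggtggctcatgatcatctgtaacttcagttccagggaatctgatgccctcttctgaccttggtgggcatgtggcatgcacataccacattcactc
The Psmb5 window holds 1 antioxidant response element core, starting 47 bases before the start. This motif is bound by the Nfe2l1 and Nfe2l2 family of factors, and Nfe2l1 is known to drive constitutive proteasome genes. It was found in 10.2% of 32851 promoter windows and in 4 of 35 windows of the members (11.4%), those of Psmb5, Psmb6, Psmc6 and Psmd12. The interferon regulatory factor motif, GAAA, any 2 bases and GAAA again, was in 2.98% of all windows and in 2 of 35 member windows, of Psmb3 and Psmd4, and in neither the Psmb8 nor the Psmb10 window. The GATA motif AGATAA was in 0 of 35 member windows and 9.99% of all windows. A match describes letters in the window and not a binding site.

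Psmb8 lies at chr17:34198195-34201454 (GRCm38.p6) between the peptide transporter genes Tap1 and Tap2, 969 bases from Tap1 and 3024 bases from Tap2. These neighbors also fell. Tap1 had 19.3, 17.6 and 23.7 CPM in S0-Low and 0.0757, 0 and 0 CPM in S3, a fall of at least 114-fold (edgeR, adjusted p = 0.000276). Tap2 had 33, 22.9 and 26.3 CPM and then 0, 3.69 and 2.47 CPM, a 13.3-fold difference of means (edgeR, adjusted p = 0.00911) that was 8.89-fold without S3 replicate 1 and 22.2-fold without S3 replicate 2. Both transporter genes had non-overlapping groups. Irf1, an interferon-induced transcription factor, had 28.4, 25.1 and 62.7 CPM in S0-Low and 0 counts in all S3 libraries (at least 217-fold, edgeR adjusted p = 0.000449). Of the 6 genes listed for MHC class I loading and interferon, these 3 fell and 0 rose, where 22.4% of all genes fell and 13.4% rose. With library totals 5 of the 6 fell and 0 rose, where 37.6% of all genes fell and 6.98% rose. B2m and Nlrc5 had log2 fold changes of −2.06 and −6.04 and did not pass, at adjusted p (edgeR) of 0.0695 and 0.0648. Nlrc5 had a mean of only 1.40 CPM in S0-Low and was at or under the floor of 3 counts in every S3 library. The floor makes its fall at least 7.84-fold, and its groups overlapped. Tapbp, the chaperone that links the transporter to MHC class I, pointed the other way. It had 38.8, 27.8 and 59.8 CPM in S0-Low and 73.0, 83.0 and 125 CPM in S3, without overlap, and its log2 fold change of 1.15 did not pass (edgeR, adjusted p = 0.0531), though it did in 4 of 16 alternatives.

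The regulatory particle genes leaned upward by TMM. Of its 17 genes 4 rose (against 13.4% of all genes) and 0 fell (against 22.4%), so 13 did not pass. Of the 9 genes of its base, which holds the ATPase ring and the largest scaffold subunits, 3 rose: Psmc2, Psmc6 and Psmd1. Of the 8 genes of its lid, 1 rose, Psmd11. The median log2 fold change was 0.68 over the 17 genes (0.82 for the base, 0.58 for the lid), with a range from −0.12 to 1.34, against −0.54 for all genes, and all 17 lay above that value. By TMM 15 of 17 were above 0. The median was 0.30 without S0-Low replicate 3 and 0.47 with a minimum of 10 counts in each library compared, where all genes had −0.05. With library totals the median was −0.09, 5 of 17 were above 0 and 0 passed, where 6.98% of all genes rose, while RLE size factors gave a median of 0.56 and 4 calls, where 12.1% of all genes rose.

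Psmc2, an ATPase of the ring, had 84.9, 96.0 and 38.8 CPM in S0-Low and 176, 241 and 140 CPM in S3. Means of the populations in between were 89.4, 121 and 146 CPM, in order of maturity. Every S3 library lay above every S0-Low library, and the mean was 2.54-fold higher (log2 fold change 1.34 ± 0.38 SE, edgeR adjusted p = 0.0136). Psmc6, another ATPase of the ring, had 81.4, 129 and 114 CPM in S0-Low, means of 120, 167 and 201 CPM over the next 3 populations, and 225, 362 and 167 CPM in S3. The groups did not overlap, and S3 replicate 2 stood highest (log2 fold change 1.21 ± 0.32 SE, edgeR adjusted p = 0.00860).

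Psmd1, the largest scaffold subunit of the base, had 158, 172 and 94.5 CPM in S0-Low and 328, 350 and 241 CPM in S3. The lowest S3 library was 241 CPM against 172 CPM for the highest S0-Low library (log2 fold change 1.11 ± 0.35 SE, edgeR adjusted p = 0.0231). Psmd11, a scaffold subunit of the lid, had 134, 124 and 85.8 CPM in S0-Low, means of 142, 179 and 205 CPM over the next 3 populations, and 266, 261 and 197 CPM in S3. It was higher in S3 without overlap and had the smallest adjusted p of the regulatory genes (log2 fold change 1.07 ± 0.27 SE, edgeR adjusted p = 0.00728).

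These 4 calls were lost with library totals, where the log2 fold changes were 0.54, 0.38, 0.31 and 0.27 in the same order, and in a fit of the 6 compared libraries alone, where the adjusted p ran from 0.0618 to 0.0755. Psmd11 passed with any library left out. Without S3 replicate 2, Psmc2, Psmc6 and Psmd1 had adjusted p of 0.0539, 0.0525 and 0.0648. Psmc2 also missed without S0-Low replicate 3 (0.0549), Psmc6 without S0-Low replicate 1 (0.0555), and Psmd1 without S0-Low replicate 1, S0-Low replicate 3 or S3 replicate 1 (0.0549, 0.0945 and 0.0566). Leaving out any 1 library kept the log2 fold changes of the 4 genes between 0.84 and 1.52.

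The regulatory genes at the other end were close to level by TMM. Psmd3 of the lid had 132, 128 and 31.9 CPM in S0-Low and 83.6, 137 and 48.4 CPM in S3 (log2 fold change −0.12). Psmd7, the partner of the lid's deubiquitinase, had 177, 190 and 130 CPM and then 175, 214 and 104 CPM (−0.02). Psmd2, a scaffold and ubiquitin-binding subunit of the base, had 188, 178 and 128 CPM and then 186, 280 and 116 CPM (0.24). In all 3 genes replicate 3 was lowest in both populations and the groups overlapped. Psmd14, the deubiquitinase that removes ubiquitin from substrates, had a log2 fold change of 0.49, and the ubiquitin receptor Psmd4 one of 0.82, with neither past the test. Among the ATPase genes, Psmc1, Psmc4 and Psmc5 had 0.39, 0.41 and 0.52 and did not pass. The lid genes Psmd6 and Psmd8, at 0.68 and 0.41, did not pass either. The groups of Psmc3, Psmd12 and Psmd13 did not overlap, at log2 fold changes of 0.89, 0.78 and 0.80, and these genes did not pass. Counting by overlap alone, 10 of 37 members were higher in every S3 library than in every S0-Low library, against 16.6% of all genes, and 3 were lower, against 25.9%.

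**Figure D2:**
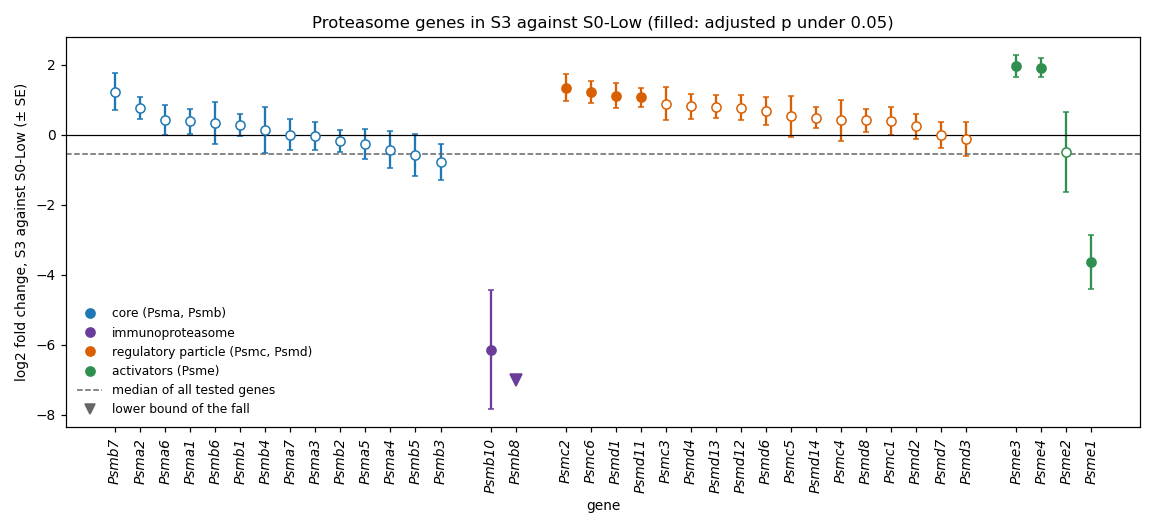
Log2 fold change of S3 against S0-Low (y axis, edgeR estimate with its standard error, TMM scaling) for the 37 members, grouped by role. Filled points had an adjusted p under 0.05, the triangle is the lower bound of the fall of Psmb8, and the dashed line is the median of all genes tested, −0.54. The regulatory genes ran from −0.12 to 1.34, and with library totals the median of the core genes moved to −0.72 and that of the regulatory genes to −0.09.

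The alternative activators split. Psme3, the nuclear activator that acts without ubiquitin, had 175, 199 and 155 CPM in S0-Low (177 ± 21.8, mean and SD, n = 3) and 174, 201 and 132 CPM in S0-Medium. S1 libraries had 282, 220 and 140 CPM, S2 libraries 338, 240 and 224 CPM and S3 libraries 543, 795 and 731 CPM (689 ± 131). The S3 libraries lay above every other library of the series (log2 fold change 1.96 ± 0.32 SE against S0-Low, edgeR adjusted p = 0.000281). Psme4, a nuclear activator known for the breakdown of acetylated histones, had 175, 139 and 222 CPM in S0-Low (179 ± 41.6) and 191, 177 and 154 CPM in S0-Medium. S1 libraries had 283, 231 and 246 CPM, S2 libraries 346, 222 and 305 CPM and S3 libraries 641, 647 and 733 CPM (674 ± 51.3). Again every S3 library stood above the rest (log2 fold change 1.91 ± 0.27 SE, edgeR adjusted p = 0.000107). Both passed in all 16 alternatives, library totals included, where their log2 fold changes were 1.11 and 1.06.

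Psme1, a subunit of the interferon-induced activator, moved the other way. It had 127, 73.2 and 46.7 CPM in S0-Low and 56.2, 50.7 and 123 CPM in S0-Medium. S1 libraries had 38.8, 39.8 and 42.7 CPM, S2 libraries 42.6, 33.9 and 8.85 CPM and S3 libraries 3.56, 14.7 and 1.55 CPM. Every S3 library lay below every S0-Low library (log2 fold change −3.63 ± 0.77 SE, edgeR adjusted p = 0.00229), and the call held in all 16 alternatives. The fold between the means was 12.46, and 32.3 without S3 replicate 2. From S0-Low to S0-Medium the leukocyte marker sums went from 453 to 656 CPM down to 92.8 to 249 CPM, while the Psme1 groups overlapped, with means of 82.4 and 76.6 CPM. The part of leukocytes and progenitor cells in the fall of Psme1 was not tested. Psme2, the other subunit of that activator, had 28.7, 23.3 and 0 CPM in S0-Low and 10.1, 24.0 and 2.76 CPM in S3, so the groups overlapped (log2 fold change −0.50 ± 1.14 SE, edgeR adjusted p = 0.753). S0-Low replicate 3 had 0 counts where the others had over 23 CPM. Psme2 shares 62.6% of its 31-base stretches with Psme2b-ps, a copy with 0 counts in all 18 libraries, so its counts are uncertain. Psme1 (chr14:55578494-55581527) and Psme2 (chr14:55587440-55591101) are neighbors 5912 bases apart on GRCm38.p6.

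The log2 ratio of Psme1 to Psme3 was −1.21 ± 0.66 (mean and SD, n = 3) in S0-Low and −1.23 ± 1.00 in S0-Medium. It was −2.33 ± 0.58 for S1, −3.46 ± 0.98 for S2 and −7.08 ± 1.39 for S3. Lin+ cells had 0.13 ± 0.27. These ratios are of CPM without correction for length. Per kilobase of transcript, Psme1 and Psme3 had means of 102 and 40.7 CPM per kb in Lin+, 74.1 and 66.3 in S0-Low, and 5.95 and 259 in S3.

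The upstream windows of Psme3 and Psme4 are shown because these members rose most. Both are on the plus strand of chromosome 11 of GRCm38.p6, at chr11:101315963-101316212 and chr11:30771525-30771774.
Psme3: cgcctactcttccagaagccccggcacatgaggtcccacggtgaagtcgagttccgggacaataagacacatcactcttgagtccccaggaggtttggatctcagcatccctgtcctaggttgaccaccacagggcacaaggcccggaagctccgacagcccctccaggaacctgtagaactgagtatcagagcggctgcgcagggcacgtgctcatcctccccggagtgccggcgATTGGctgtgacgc
Psme4: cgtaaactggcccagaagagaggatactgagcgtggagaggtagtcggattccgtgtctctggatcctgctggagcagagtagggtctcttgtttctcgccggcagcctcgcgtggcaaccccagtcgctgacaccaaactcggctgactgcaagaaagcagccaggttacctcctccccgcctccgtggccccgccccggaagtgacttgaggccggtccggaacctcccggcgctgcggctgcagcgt
The Psme3 window holds a CCAAT box on the reverse strand, starting 14 bases before the start and shown in capitals. CCAAT was in 33.8% of all windows and in 12 of 35 member windows (34.3%). The motif CCNCNCCC, read by Krüppel-like factors such as the erythroid Klf1, was in 15 of 35 member windows (42.9%) and 45.9% of all windows, and in Psme4 but not Psme3. For neither motif did the members' share stand far from that of all promoters. RefSeq windows were found for 32 of the 38 genes.

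The core and the regulatory particle drifted apart in mean level. The mean over the 14 core genes of log2(CPM + 0.5), minus that over the 17 regulatory genes, was −0.69, −0.81 and −0.70 in the S0-Low libraries. It was −1.53, −1.09 and −1.46 in the S3 libraries, all below the S0-Low values. Group means were −0.74 ± 0.06 (mean and SD, n = 3) in S0-Low and −0.87 ± 0.20 in S0-Medium. They were −1.02 ± 0.02 for S1, −1.05 ± 0.09 for S2, −1.36 ± 0.24 for S3 and −0.66 ± 0.06 for Lin+. The change from S0-Low to S3 was −0.62, made of 0.07 for the core and 0.69 for the regulatory genes by TMM. As a score over chosen members, this difference was given no test.

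Per kilobase of the longest coding transcript, a rough correction for length, the median core gene had 55.7 CPM per kb in S0-Low and 60.1 in S3. The median regulatory gene had 49.7 CPM per kb in S0-Low and 85.1 in S3. On this scale the medians were near one another in S0-Low, and their order turned in S3. The genes ranged widely, from 20.0 to 103 for the core and 26.9 to 104 for the regulatory genes in S0-Low. In S3 the ranges were 13.4 to 123 and 41.8 to 149. Which transcript each gene made was not determined. In core and regulatory genes together, the log2 fold change had a Pearson r of 0.52 and a Spearman rho of 0.50 with the log10 length of the transcript over 31 genes, which share the same libraries. Core transcripts were shorter, with a median of 1101 bases against 1785 for the regulatory genes. Within the core r was 0.33, within the regulatory genes 0.28, and over all tested genes with a length −0.05. Median locus spans were 12000 and 13163 bases.

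**Figure D3:**
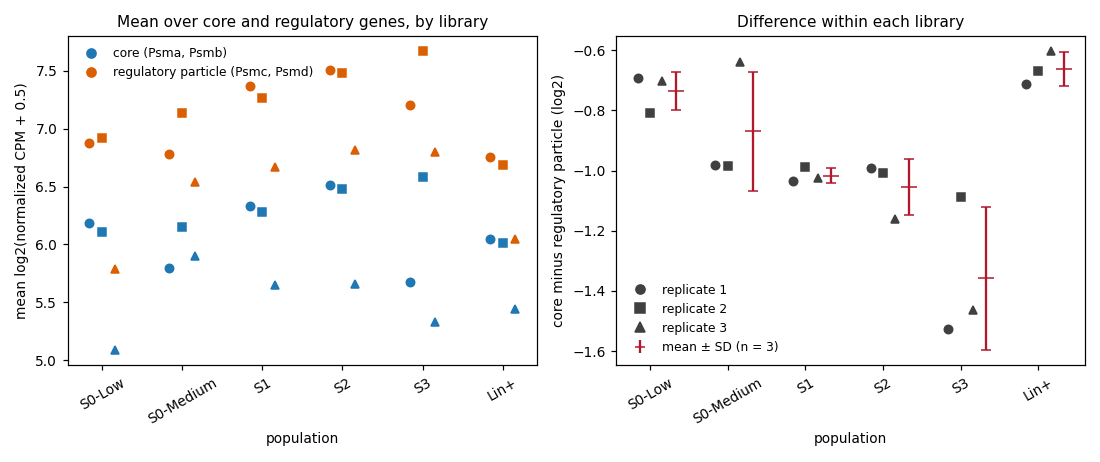
Left, mean log2(CPM + 0.5) of the 14 core and of the 17 regulatory genes in each library. Right, their difference in each library with the group mean and SD. The difference was between −0.81 and −0.69 in S0-Low and between −1.53 and −1.09 in S3.

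The population that held a gene's highest mean depended on the scaling. Among the 5 erythroid populations by TMM, 10 of 14 core genes were highest in S2, 3 in S3 and 1 in S1, while 9 of 17 regulatory genes were highest in S3, 7 in S2 and 1 in S1. The lowest mean was in S0-Low for 14 of 17 regulatory genes. For core genes it was in S3 for 6, S0-Low for 5 and S0-Medium for 3. With library totals, S3 was highest for 0 regulatory genes and 1 core gene, and lowest for 11 of 17 and 12 of 14, while S2 was highest for 12 regulatory and 4 core genes. The order of the populations was not tested between the particles.

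**Figure D4:**
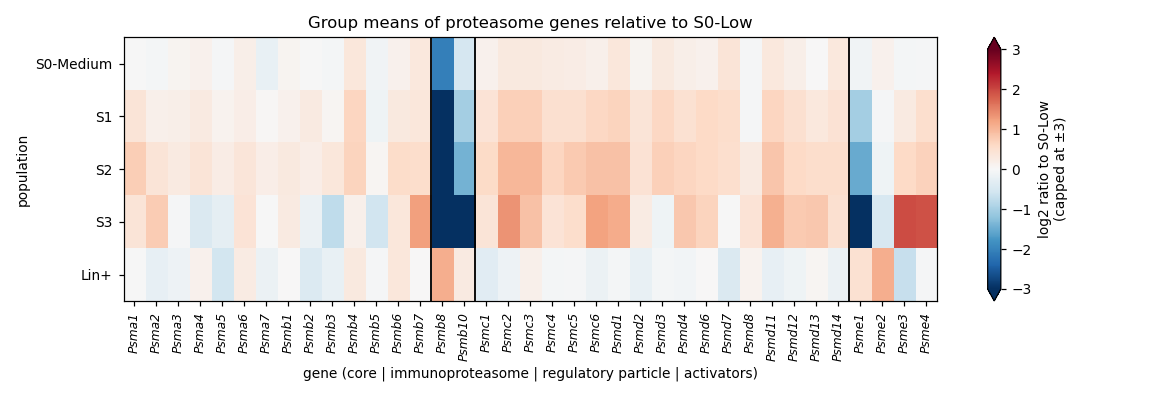
Log2 ratio of each group's mean CPM plus 0.5 to that of S0-Low (color, capped at 3 in both directions) for the 37 members in columns and the other 5 groups in rows. Psmb8, Psmb10 and Psme1 turn to dark blue, the low end, by S3, and Psme3 and Psme4 are red, the high end, in S3.

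Step by step, edgeR called members from S2 to S3 and in none of the earlier steps. From S0-Low to S0-Medium, S0-Medium to S1 and S1 to S2, it called 0 members in either direction and, without the replicate block, 0 genes of all 16555 (0%). With the replicate number as a block, which pairs the samples in these steps, 0 members were called again. Over all genes the blocked counts were 22 higher and 1 lower in the first step, 28 and 29 in the next, and 0 and 0 from S1 to S2. At an unadjusted p under 0.05, 0 members were higher or lower in the first of these steps, against 1.78% and 1.47% of all genes, and 0 in the last, against 1% and 3.03%. From S0-Medium to S1, 0 members were higher at that level against 1.68% of all genes, and 1 was lower, Psmb8, against 5.18% (edgeR, adjusted p = 0.265). DESeq2 called Psmb8 lower in that step, against 2.22% of all genes lower and 0.199% higher. It called 0 members in the first step, against 0.169% higher and 0.115% lower. From S1 to S2 it called 0 members too, against 0.0362% higher and 0.852% lower. The median log2 fold changes of these steps were 0.04, 0.14 and 0.17 for the core and 0.21, 0.30 and 0.20 for the regulatory genes, against 0.03, −0.02 and −0.05 for all genes. Single libraries turned the sign of some. In the first step the regulatory median was −0.09 without S0-Low replicate 3 and −0.02 without S0-Medium replicate 2, and the core median −0.15 and −0.04. From S0-Medium to S1 the core median was −0.05 without S1 replicate 1. From S1 to S2 both turned without S1 replicate 3, to −0.02 for the regulatory and −0.04 for the core genes.

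Since the replicate numbers pair these samples, members were also counted by pair. By TMM, 5 of 17 regulatory genes were higher in all 3 pairs from S0-Low to S0-Medium, where 18.6% of all genes were. In the next step 10 of 17 were, against 23.6%, and from S1 to S2 9 of 17, against 16.5%. No regulatory gene was lower in all 3 pairs of these steps, where 16.7%, 22.6% and 20.7% of all genes were. With library totals the counts were 4, 4 and 3, against 16.4%, 14.9% and 11.2% of all genes. Of the 14 core genes, 0, 3 and 5 were higher in all 3 pairs by TMM and 0, 1 and 2 with library totals. Of the core genes 0 were lower in all 3 pairs by either scaling. With library totals 0 regulatory genes were lower too, against 18.3%, 30.9% and 26.1% of all genes. From S2 to S3, not taken as paired, 3 core and 2 regulatory genes were lower in all 3 by TMM, against 26.7% of all genes. With library totals 12 of 14 and 13 of 17 were, against 39.1%. Higher in all 3 were 1 and 2 by TMM (15.8%) and 0 and 0 with library totals (8.91%). These counts are a description, and a member without a call is not shown to be level.

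From S2 to S3, 2 members rose against 3.26% of all genes. Psme3 rose by 1.37 ± 0.31 SE on the log2 scale (edgeR adjusted p = 0.0128) and Psme4 by 1.22 ± 0.27 SE (edgeR adjusted p = 0.0112), and for both genes the groups did not overlap. These calls were lost with library totals (adjusted p of 0.0578 and 0.0675), in a fit of the 6 libraries alone, and without S2 replicate 2. EdgeR called 0 members lower against 6.09% of all genes. At an unadjusted p under 0.05, 4 were lower (17.5% of all genes), Psmb3, Psmb8, Psmb10 and Psme1. DESeq2 called Psmb10 and Psme1 lower, against 12.3% of all genes. The core median was −0.33 and the regulatory median 0.08 by TMM, and −0.83 and −0.41 with library totals. The median of all genes was −0.31 in the main set, −0.02 with a minimum of 10 counts in each library compared and 0 without a filter, where the core medians were −0.33 and −0.35.

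Lin+ cells, which carried leukocyte and myeloid markers, had Psmb8 and Psmb10 far above the floor of 3 counts in every library. Against S0-Low, edgeR called 0 members higher and 0 lower, where 0.496% and 0.220% of 17755 genes passed. At an unadjusted p under 0.05, 0 members were higher or lower, against 6.89% and 2.96% of all genes. DESeq2 called 0 members, where 2.71% of all genes were higher and 0.76% lower. Psmb8 was at 62.1, 43.9 and 44.5 CPM in Lin+, above every S0-Low library, without passing (edgeR, adjusted p = 0.829). Psmb10 was at 37.7, 29.0 and 23.7 CPM and Psme1 at 146, 117 and 78.8 CPM, both overlapping S0-Low. The log2 ratio of Psmb8 to Psmb5 was 1.23 higher in Lin+ than in S0-Low, without overlap (two-sided exact permutation p = 0.1, adjusted 0.133), and that of Psmb10 to Psmb7 differed by 0.03 (exact p = 1).

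Against S3, whose libraries also enter the comparison with S0-Low, 3 members were higher in Lin+ (28.2% of all genes) and 8 lower (14.1%). The higher ones were Psmb8, Psmb10 and Psme1, the last by 4.10 ± 0.75 SE on the log2 scale (edgeR adjusted p = 0.000344). The lower ones were Psme3 (−2.67), Psme4 (−1.96), Psmc2 (−1.50), Psmc6 (−1.38), Psmd11 (−1.32), Psmd1 (−1.17), Psma2 (−0.99) and Psmd12 (−0.91). With library totals 2 members remained lower, Psme3 and Psme4. The core median was −0.18 and the regulatory median −0.73 by TMM, against 0.69 for all genes, and these became 0.58, 0.06 and 1.47 with library totals. With a minimum of 10 counts in each library compared they were 0.12, −0.43 and 0.02, so the side of the core against all genes depends on the filter.

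Genes around the proteasome were taken from lists of its pathway. Their counts stand against 13.4% of all tested genes higher and 22.4% lower in S3, and with lists this short a share near those is no result about a list. Of 8 tested assembly chaperone genes, 0 passed by edgeR in either direction. At an unadjusted p under 0.05, 2 of them were higher, where 17% of all genes were. DESeq2 called 0 of them, where 15% of all genes were higher and 29.3% lower. The median of the 8 genes was −0.11. Pomp, which matures the core particle, had 67.9, 54.2 and 14.0 CPM in S0-Low and 37.7, 47.9 and 2.36 CPM in S3, with overlapping groups. Of 8 associated genes tested, 2 rose and 0 fell (median 0.25). Usp14, a deubiquitinase bound to the regulatory particle, had 104, 124 and 48.7 CPM in S0-Low and 414, 326 and 330 CPM in S3 (log2 fold change 1.95, edgeR adjusted p = 0.000800, held in 16 of 16 alternatives). Psmf1, an inhibitor of the core particle, had 43.0, 36.1 and 16 CPM and then 140, 73.2 and 128 CPM (1.84, edgeR adjusted p = 0.0113, lost with library totals). Both genes were higher in S3 without overlap.

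Of 7 genes that deliver ubiquitinated substrates, 1 rose and 0 fell by TMM (median 0.20), while with library totals 0 rose and 2 fell. Nploc4, a cofactor of the segregase Vcp, rose by 1.03 (edgeR adjusted p = 0.0150), in 10 of 16 alternatives, and had 0.21 with library totals (adjusted p = 0.546). Rad23b, a shuttle that brings ubiquitinated proteins to the proteasome, had a log2 fold change of −0.56 that did not pass by TMM and −1.35 with library totals (edgeR adjusted p = 0.0177). Ubqln4, a shuttle of the ubiquilin family, had 110, 104 and 83.9 CPM in S0-Low and 64.1, 49.7 and 11.7 CPM in S3. Its groups did not overlap, and its log2 fold change of −1.25 did not pass by TMM (edgeR adjusted p = 0.0577) but did in 8 of 16 alternatives, among them library totals (−2.01, adjusted p = 0.00803).

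Of 3 ubiquitin genes, 1 rose and 0 fell (median 0.40). The polyubiquitin gene Ubb had 219, 200 and 90.4 CPM in S0-Low and 270, 700 and 985 CPM in S3 (log2 fold change 1.94, edgeR adjusted p = 0.00429). It passed in 15 of 16 alternatives, failing with library totals, and its S3 libraries were all higher than those of S0-Low. Rps27a, a ribosomal fusion gene of ubiquitin, had −0.85 and did not pass. Of 4 regulators, 1 rose: Nfe2l2, the stress-response factor of the antioxidant response element, by 0.93 (edgeR adjusted p = 0.0210, in 9 of 16 alternatives). Nfe2l1 had 0.67 and did not pass (edgeR adjusted p = 0.190). With library totals, where 6.98% of all genes rose and 37.6% fell, 1 associated gene rose, Usp14, and 1 fell, Uchl5 (−1.20, edgeR adjusted p = 0.0291). Of the ubiquitin genes 0 rose and Rps27a fell (−1.61, edgeR adjusted p = 0.0317), and of the assembly and regulator genes 0 passed. The medians by TMM stand against −0.54 for all genes, and with library totals, where all genes had −1.36, they were −0.91 for assembly, −0.56 for associated, −0.61 for delivery, −0.39 for ubiquitin and −0.22 for regulator genes.

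**Figure D5:**
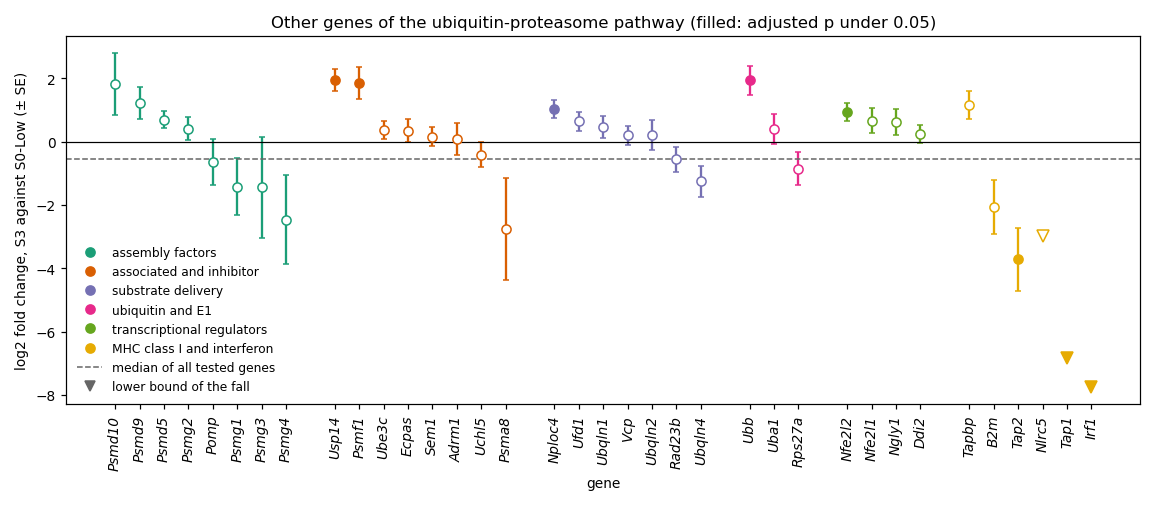
Log2 fold change of S3 against S0-Low (y axis, edgeR estimate with its standard error, TMM scaling) for the genes of the pathway lists. Filled points had an adjusted p under 0.05, triangles are lower bounds of a fall, and the dashed line is the median of all genes tested. Usp14 stands at 1.95 and Ubb at 1.94, and Tap1, Tap2 and Irf1 are the filled points and triangles on the low side.

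Because the reads were assigned to transcripts by shared stretches of bases, genes with near copies are less certain. Of the 37 members, 17 shared no 31-base stretch with another gene or pseudogene scanned, and 26 shared under 10%. Among those 26, the median log2 fold change by TMM was 0.36 for 8 core genes and 0.78 for 13 regulatory genes. Psmb10, Psme1, Psme3, Psme4, Psmc2 and Psmd1 shared 0%, Psmc6 1.26% and Psmd11 17.5%. Psmd2, Psmc1 and Psmd14 shared 36.7%, 30.5% and 25.1%, which does not measure how far their counts are off. The main copies of Psmd2 and Psmc1 had 499 and 372 counts, against 107282 and 88540 for the genes. For Psmd14, 18.3% was shared with a second gene model of the same symbol that is not in the count table.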

How the data were processed

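The 18 libraries of 4sU-seq, from sorted mouse fetal liver cells, were grouped by the labels into 5 erythroid populations and Lin+ cells with 3 replicates each. The authors quantified reads with kallisto 0.43.0 (GRCm38, per the submitters' processing notes) and deposited estimated counts per gene as whole numbers, without normalization. The transcript set and the treatment of introns are not given in the sources used here. Kallisto divides reads among transcripts that share bases, so near-identical copies share counts. Of the identifiers, 32651 had a symbol, and these held 98.7% of the counts.

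Counts were analyzed with edgeR 4.0.16 (limma 3.58.1, R 4.3.3) by the quasi-likelihood test, two-sided, with TMM and filterByExpr, over the 15 erythroid libraries (16555 genes, common biological coefficient of variation 0.795) or, for Lin+, all 18 (17755 genes, 0.771). P-values were adjusted over all tested genes by the Benjamini-Hochberg method at 0.05. Ratios within libraries used log2(CPM + 0.5) and an exact permutation test. A floor of 3 counts gave lower bounds of folds, which cover counting error only, and the libraries were made by PCR without molecular identifiers. Alternatives were DESeq2 1.42.0, RLE factors, library totals, no filter, at least 10 counts in every compared library, a block for the replicate number, a fit of the compared libraries alone, a fit of all 18, globin genes left out, other pseudocounts and gene sets, and each replicate left out. Leaving out replicate 3 of every population and counting Psmb8 and Psmb10 with the core were chosen after seeing the data.

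Values in every library are given for the catalytic and activator genes and for the 3 highest and 3 lowest changes among the other core genes and among the regulatory genes. Those of Psmd11 in S0-Low and S3 are given too, since it passed the test. The other members are given by their log2 fold change. Further genes are named from the pathway lists, with Tapbp and Ubqln4 given in full after their values were seen. The members and lists were chosen with earlier results of these data known. Some genes of the pathway lists are not reported here. Figures and tables used matplotlib 3.10.9, scipy 1.17.1, pandas 2.3.3 and numpy 2.4.6 under Python 3.11.15. On simulated data with 16033 genes tested, edgeR recovered 0% of 67 genes changed 2-fold, 22.4% of 67 changed 4-fold and 54.5% of 66 changed 16-fold between S3 and S0-Low. Only these genes were changed there, while in the data 13.4% of all genes rose and 22.4% fell. The adjusted threshold was therefore harder to reach in the simulation. Shared replicate numbers were taken to pair the samples where every correlation of deviations was over 0.1. That held in 3 steps only, S0-Low to S0-Medium (0.23 to 0.27), S0-Medium to S1 (0.32 to 0.37) and S1 to S2 (0.20 to 0.32). Sequences and coordinates are from RefSeq on GRCm38.p6.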

Additional observations from a re-analysis of the deposited data

How the results depend on the processing

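From S0-Low to S3, the count of members higher, 6 in the main analysis, was 2 with library totals (6.98% of all genes), 2 with only the 6 libraries compared (1404 of 13423 genes), 13 with the replicate block (15.9%), 3 to 6 with 1 library left out (9% to 12.3%) and 8 without replicate 3 of every population (13.7%), against 13.4% in the main analysis. The count lower, 3, was 5 with library totals (37.6% of all genes), 1 of 34 members tested with a minimum of 10 counts in each of those libraries, a filter that removes the genes that fell to 0 (18%), and 3 to 4 with 1 library left out (14.7% to 21.8%), against 22.4%. From S0-Medium to S1, the count lower, 0 (0% of all genes), was 1 with DESeq2 (2.22%) or all 18 libraries (0.681%). From S2 to S3, the count higher, 2 (3.26% of all genes), was 0 with library totals (1.74%) or only the 6 libraries (0.630%), 0 to 2 with 1 library left out (0.934% to 4.8%) and 3 without replicate 3 of every population (7.33%). The count lower, 0 (6.09%), was 2 with DESeq2 (12.3%), 3 with library totals (13.7%), 2 without a filter (5.93%), 2 with the replicate block (11.3%), 1 with all 18 libraries (7.57%), 2 without replicate 3 of every population (11.6%) and 0 to 3 with 1 library left out (2.92% to 9.11%). From S3 to Lin+, the count higher, 3 (28.2%), was 5 with library totals (40.1%), 1 with at least 10 counts (19.4%) and 3 to 6 with 1 library left out (20% to 25.9%), and the count lower, 8 (14.1%), was 2 with library totals (7.54%), 14 with the replicate block (16%) and 5 to 9 with 1 library left out (10.6% to 13%). The core minus regulatory change of −0.62 was −0.45 as a median over members, −1.29 with Psmb8 and Psmb10 counted with the core and −0.76 to −0.54 with 1 library left out. The difference of the Psmb10 to Psmb7 ratio between Lin+ and S0-Low, 0.03, turned to −0.01 without Lin+ replicate 1, −0.02 without Lin+ replicate 3, −0.33 without S0-Low replicate 1 and −0.02 without S0-Low replicate 2, a range of −0.33 to 0.44. The cause of these shifts was not tested. For single members from S0-Low to S3, 558 values stayed on their side of the threshold, 16 lost the call and 15 gained it. Of the 589 values, 48 changed sign, 16 of them with library totals, and none of these was called in the main analysis.

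A shared number was taken to pair the samples where all 3 correlations of deviations were over 0.1. The numbers shared by S3 and S0-Low, S3 and S2, Lin+ and S0-Low, and Lin+ and S3 missed this cut (0.01 to 0.20). S3 and S2 came near it, with 0.09, 0.20 and 0.17, where the lowest value from S1 to S2 was 0.20. Replicate 3 was low for most members in these groups too, and a replicate effect shared by them was not tested. In the 3 steps where the numbers did pair the samples, the block changed no call of a member, while over all genes it gave 22 higher and 1 lower, 28 and 29, and 0 and 0, where the fit without it gave 0. Ratios of Psmb9 were not computed. In the simulation no gene changed 2-fold was recovered, but few genes changed there, so its adjusted threshold was harder to reach than in the data. In the data 4 regulatory genes were called at 2.11-fold to 2.54-fold. A member that did not pass is still not shown to be level.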
